A study of Antirrhinum majus with 21 samples.

Results

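The comparison covers 6 libraries of *Antirrhinum majus* (snapdragon) corollas, 3 that carried a dominant ROSEA allele and 3 that carried a recessive one, all with the same dominant ELUTA allele. They are 6 of the 21 libraries of the series and were grouped by their labelled genotype. The comparison was chosen with earlier results of these data known. The first group, ROSpse_ELstr, had the dominant ROSEA (ROS) allele of the wild magenta *A. m. pseudomajus* and the dominant ELUTA (EL) allele of *A. m. striatum*, and its corollas are labelled eluta. The second, rosstr_ELstr, had the recessive ros allele and the dominant EL allele of *A. m. striatum*, and its corollas are labelled white. The labels give 1 allele per locus and no zygosity.

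ROSEA is known to encode MYB transcription factors that switch on the enzymes making magenta anthocyanin in the snapdragon corolla. ELUTA, which is linked to it, is known as a MYB that limits where that pigment forms. The comparison asks which transcripts differ with the ROS allele while the EL allele stays the same.

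Each library was made from the corolla of a flower bud 5 to 10 mm long, at stage 12 to 13, from 1 plant, and read as single ends of 50 bases. The plants were grown together outdoors. The 5 other genotypes, with 3 plants each, were ROSpse_elpse (dominant ROS and recessive el of *pseudomajus*, magenta), rosdor_eldor (recessive ros and el of the stock line rosea-dorsea, white), ROSji7_ELstr (dominant ROS of the stock line JI7 with EL of *striatum*, eluta), ROSji7_elji7 (dominant ROS and recessive el of JI7, magenta) and rosrec_elpse (a recombinant ros allele, *striatum* upstream and *pseudomajus* downstream, with recessive el of *pseudomajus*, pale).

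The estimated read totals were 17764056, 26026213 and 26452576 in ROSpse_ELstr and 41860890, 28433136 and 41452466 in rosstr_ELstr. A plant feature and a library feature go with the ROS allele. All 3 ROSpse_ELstr plant IDs begin with A174 and all 3 rosstr_ELstr IDs with A182, so within the 6 libraries the ID prefix and the ROS allele cannot be told apart. The labels do not say what the prefix marks. ROSpse_ELstr replicate 1 has a library number below 3000 and rosstr_ELstr replicate 1 one above 8000, while the other 4 share the middle range. ROSpse_ELstr replicate 1 also stood apart from the others of its group on the first principal component of all 21 libraries, at 65.6 against -25.3 and -9.28, and the rosstr_ELstr libraries spread from -78.1 to 29.2 on it. Replicates within the groups had a Spearman correlation across genes of 0.950 to 0.977, and their counts differed by far more than sampling noise.

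Of 24674 genes tested with edgeR's quasi-likelihood test, 112 passed a Benjamini-Hochberg adjusted p of 0.05 and are called here, which is 0.454% of them. In ROSpse_ELstr, 66 genes were higher (0.267%) and 46 lower (0.186%). The median log2 fold change was 1.81 among the higher genes and -2.30 among the lower ones, beside 0.00451 over all tested genes, and 20 of the 112 changed by less than 1 on the log2 scale. The 3 libraries of one group lay apart from the 3 of the other at 111 of the 112, beside 21.1% of all tested genes (10.6% higher and 10.4% lower in ROSpse_ELstr). The exception, AnMG0306721800, varied widely between the rosstr_ELstr plants. It had 0.123, 0.0378 and 0 CPM (reads scaled to a common library size) in ROSpse_ELstr and 4.32, 36.9 and 0.0528 in rosstr_ELstr. Its means were 27.9 CPM in ROSji7_elji7, 27.9 in ROSji7_ELstr, 12.0 in rosdor_eldor and 38.5 in rosrec_elpse, and 0.229 in ROSpse_elpse. Of the 112 genes, 90 had a mean over 10 CPM in the 6 libraries and 16 over 100 CPM. DESeq2 called 714 genes (2.89%), 411 higher (1.67%) and 303 lower (1.23%), among them all 112. In bulk corolla RNA, fewer cells of a type and less RNA per cell cannot be told apart.

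The calls were sensitive to single plants. Without ROSpse_ELstr replicates 1, 2 and 3 in turn, 66, 21 and 5 genes were called, and without rosstr_ELstr replicates 1, 2 and 3 in turn, 8, 15 and 89. Of the 112 genes, 43 were called in no such fit and 4 in all 6. These 4 were AnMG0005279310 and AnMG0000139000 on the sequence ros_assembly and AnMG0004221600 and AnMG0006872600 on scaffold121.

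The assembly sequence named ros_assembly, after the locus that differs between the groups, held 5 of the called genes among its 80 tested genes, or 6.25% beside 0.454% over all genes. Of these, 4 were higher in ROSpse_ELstr and 1 lower. All 5 lay in the part from its start to AnMG0000144700, and this boundary was chosen after the values were seen. Of the 47 tested genes in that part, 17 had libraries that did not overlap between the groups (36.2%, beside 21.1% over all tested genes). Changes of more than 1 on the log2 scale were seen in 16 (34.0%, beside 10.8%). An unadjusted edgeR p under 0.05 was found for 15 of the 47, beside 2849 of all 24674 tested genes. Among the 33 genes after AnMG0000144700, 0 were called and 3 did not overlap (9.09%). Of these 33, 3 changed by more than 1 (9.09%) and 2 had an unadjusted edgeR p under 0.05. With DESeq2, 9 of the 80 genes were called (beside 2.89% of all tested genes). The median absolute log2 fold change was 0.561 in the first part, 0.254 in the second and 0.266 over all tested genes. The deposited files do not pair gene IDs with names, so which ID is ROS or EL is not stated here.

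**Figure D1:**
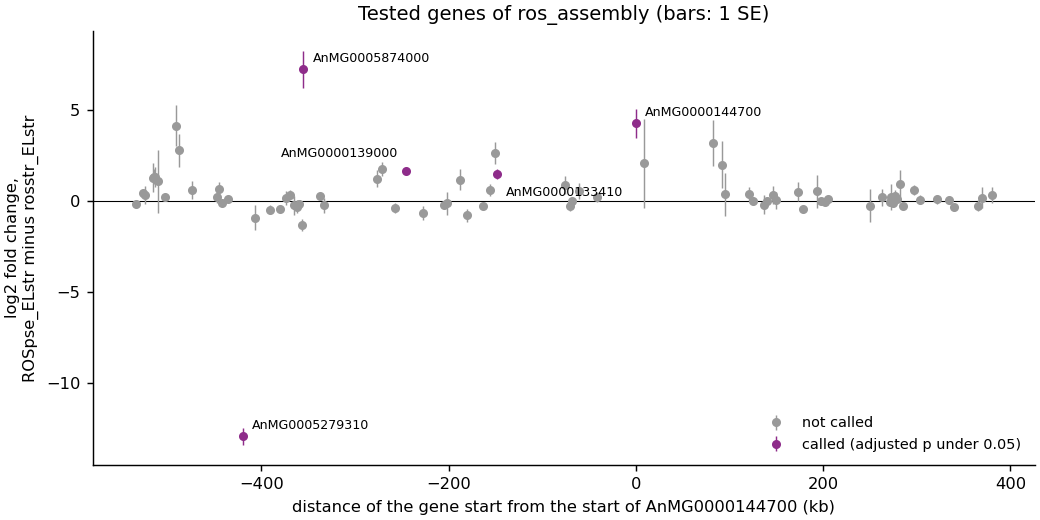
Log2 fold change of ROSpse_ELstr minus rosstr_ELstr (y axis) of the 80 tested genes of ros_assembly against the distance of each gene's start from that of AnMG0000144700 in kilobases (x axis); bars are 1 standard error and purple points are the 5 called genes. The called genes lie from -420 kb to 0 kb. AnMG0000144700 was made the boundary after the values were seen, as the last called gene, so none of the 33 genes to its right was called.

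AnMG0005279310 (ros_assembly, bases 121686 to 123759, plus strand) was the gene with the largest fall. It had 0 CPM in each of the 3 ROSpse_ELstr libraries and 33.9, 31.0 and 38.7 CPM in the rosstr_ELstr libraries. No read was assigned to it in any ROSpse_ELstr plant, and it was at a like level in all 3 rosstr_ELstr plants. Its level was at least 808-fold lower in ROSpse_ELstr, taking 3 reads in the group as the floor, and its adjusted p in edgeR's test was 1.03e-05. Floors and counting intervals cover counting error only. Outside the comparison, the mean was 28.0 CPM in rosrec_elpse, 0.020 in rosdor_eldor and 0 in the other 3 genotypes. The rosstr_ELstr and rosrec_elpse plants were therefore the only ones with more than a trace of it, and both genotypes carry *striatum* sequence at or upstream of ros.

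AnMG0000139000 (ros_assembly, bases 295677 to 302251, minus strand) had the smallest adjusted p of all tested genes. It stood at 74.4, 66.5 and 71.6 CPM in ROSpse_ELstr and at 20.8, 25.2 and 22.6 CPM in rosstr_ELstr. The groups were far apart, and the plants of each differed little. The fold was 3.10, a log2 fold change of 1.63 ± 0.11 (SE, n = 3 per group), with an edgeR adjusted p of 1.89e-06. ROSpse_elpse, with the same ROS allele, was at 66.4 CPM on average, whereas ROSji7_ELstr, ROSji7_elji7, rosdor_eldor and rosrec_elpse had means of 24.7, 22.8, 28.9 and 25.4 CPM. The gene was high in both genotypes with the *pseudomajus* ROS allele and near the white level in both with the JI7 allele.

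AnMG0000144700 (ros_assembly, bases 541660 to 544383, plus strand) had the largest fitted rise on the sequence among called genes with over 1 CPM. Its values were 58.7, 29.7 and 32.7 CPM in ROSpse_ELstr and 2.72, 1.80 and 1.72 CPM in rosstr_ELstr. Replicate 1 was the highest of the ROSpse_ELstr plants, and the groups did not overlap. The fold was 19.3, a log2 fold change of 4.27 ± 0.79 (SE, n = 3 per group) with an edgeR adjusted p of 0.0291. Leaving out any one of the 6 libraries ended the call, with adjusted p from 0.0645 to 0.127, and over all alternatives it ran from 1.58e-06 to 1.0. Means were 64.7 CPM in ROSji7_ELstr, 27.8 in ROSpse_elpse, 27.6 in ROSji7_elji7 and 24.6 in rosrec_elpse, and 0.896 in rosdor_eldor. The 2 white genotypes were the low ones.

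AnMG0000133410 (ros_assembly, bases 393052 to 396940, minus strand) was higher in ROSpse_ELstr at a low level. It had 4.97, 6.39 and 8.72 CPM in ROSpse_ELstr and 2.74, 2.76 and 1.66 CPM in rosstr_ELstr. The groups did not overlap, and the log2 fold change was 1.49 ± 0.29 (SE, n = 3 per group), with an edgeR adjusted p of 0.0339. The call remained without ROSpse_ELstr replicate 1 and was lost without any other of the 6, with adjusted p over the 6 fits of 0.0348 to 0.175 and over all alternatives of 0.000105 to 1.0. The other genotypes did not order by ROS dominance, with means of 17.2 CPM in ROSji7_elji7, 13.8 in ROSji7_ELstr, 11.4 in rosdor_eldor, 5.27 in ROSpse_elpse and 3.16 in rosrec_elpse.

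This gene has 2 annotated transcripts, T01 of 2592 bases and T02 of 2610 bases, and the estimated reads fell on different ones. In ROSpse_ELstr all reads were assigned to T02, 81.1, 169.1 and 238.8 of them. In rosstr_ELstr, replicates 1 and 2 had 118.3 and 83.0 reads on T01, and replicate 3 had 0.0 on T01 and 63.4 on T02. The rosrec_elpse plants had 48.4, 142.7 and 100.3 reads on T01. T01 had 1 or more reads in 5 of the 6 rosstr_ELstr and rosrec_elpse plants and in no plant of the other 5 genotypes. Salmon divides reads that match both transcripts by estimation, so the division is not a direct count.

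AnMG0005874000 (ros_assembly, bases 186459 to 186680, minus strand) was near the lower limit of detection. It had 0.552, 0.756 and 0.657 CPM in ROSpse_ELstr and 0 in all 3 rosstr_ELstr libraries, at least 24.2-fold higher with the same floor, with an edgeR adjusted p of 0.0153. The call was lost without ROSpse_ELstr replicate 3 or rosstr_ELstr replicate 1 or 2, with adjusted p over the 6 fits of 0.0195 to 0.0636 and over all alternatives of 1.39e-05 to 0.399. Its 222 bases lie inside AnMG0005281610 on the same strand, so reads may be split between them. AnMG0005281610 moved the other way, at 152, 161 and 119 CPM in ROSpse_ELstr and 344, 251 and 488 CPM in rosstr_ELstr, but was not called in edgeR's test, with an adjusted p of 0.0748, though DESeq2 called it (adjusted p 0.00381). AnMG0005874000 was also at 0 in rosrec_elpse and at means of 1.75 CPM in ROSji7_ELstr, 1.63 in ROSji7_elji7, 0.430 in rosdor_eldor and 0.370 in ROSpse_elpse.

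**Figure D2:**
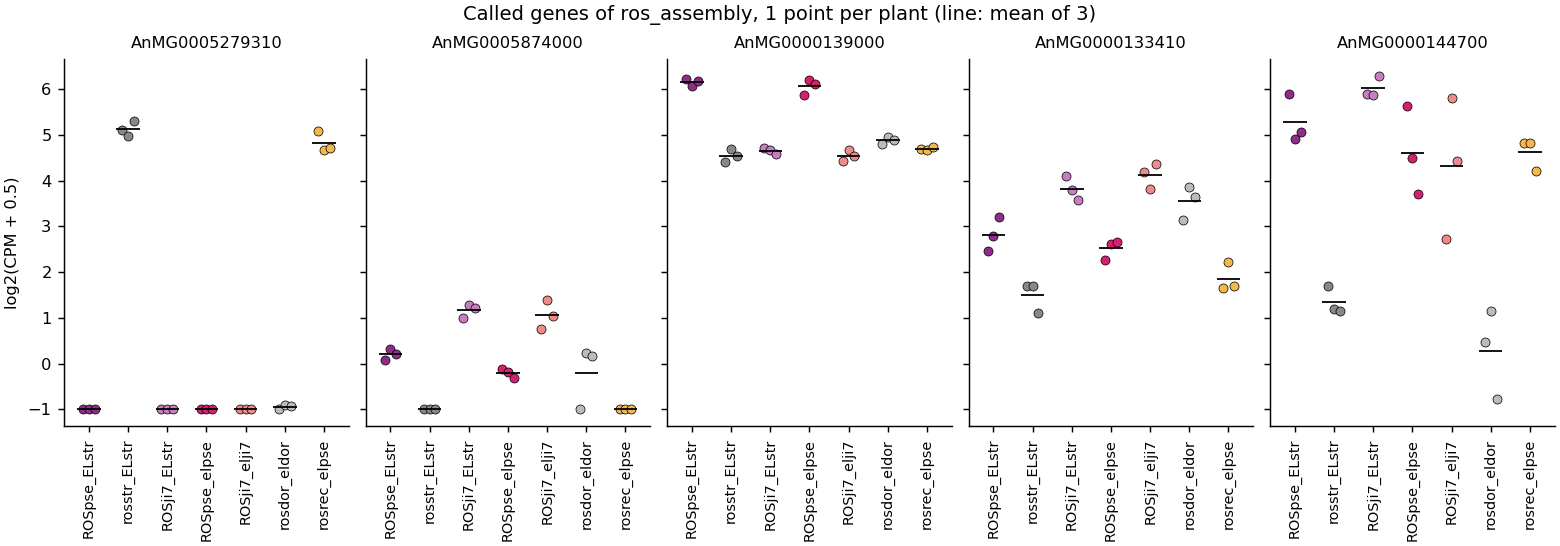
Level of the 5 called genes of ros_assembly as log2(CPM + 0.5) (y axis) in each of the 21 plants by genotype (x axis); lines are means of 3 plants. AnMG0005279310 is at or near the bottom of the scale in all but rosstr_ELstr and rosrec_elpse, and AnMG0000139000 is high in the ROSpse_ELstr and ROSpse_elpse plants.

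Further genes of ros_assembly, chosen after their values were seen, were not called in edgeR's test. AnMG0000137900 had a log2 fold change of 1.77 with an edgeR adjusted p of 0.0528, and AnMG0000141300 one of 2.64 with 0.0593. DESeq2 called both, with adjusted p of 0.000605 and 0.00064, and edgeR with a 1 CPM filter called AnMG0000137900 (0.0493). AnMG0000140810 stood at 24.3, 12.7 and 17.4 CPM in ROSpse_ELstr and at 14.0, 13.1 and 10.8 CPM in rosstr_ELstr. These overlap, and the log2 fold change was 0.52 ± 0.54 with an adjusted p of 0.813. Its mean was 16.4 CPM in ROSji7_ELstr, the third genotype with EL of *striatum*, and 4.55 in ROSpse_elpse, 4.36 in ROSji7_elji7, 4.60 in rosrec_elpse and 1.21 in rosdor_eldor, so the genotypes of the comparison shared its higher level.

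Outside ros_assembly, the genes described are the 12 largest rises and 12 largest falls among called genes whose groups did not overlap and whose higher group averaged 1 CPM or more, and the 5 most abundant called genes in each direction. The 11 other falls had log2 fold changes from -6.19 to -3.32. AnMG0001699300 (scaffold751, bases 7186 to 12627, plus strand) had 6.63, 3.74 and 3.18 CPM in ROSpse_ELstr and 124, 215 and 111 CPM in rosstr_ELstr. AnMG0005698800 (scaffold477, bases 569047 to 573714, plus strand) had 8.16, 6.50 and 7.34 CPM against 147, 227 and 138 CPM. Every rosstr_ELstr plant was far above every ROSpse_ELstr plant in both genes. Their log2 fold changes were -5.07 ± 0.84 and -4.54 ± 0.70 (SE, n = 3 per group), with edgeR adjusted p of 0.0172 and 0.0153. The AnMG0001699300 call was lost without ROSpse_ELstr replicate 2 or 3 or rosstr_ELstr replicate 1 or 2 (adjusted p over the 6 fits 0.0149 to 0.113), and the AnMG0005698800 call without ROSpse_ELstr replicate 2 or 3 (0.0101 to 0.0977). Over all alternatives both reached an adjusted p of 1.0, from 5.72e-10 and 1.27e-10.

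These genes were low in the other eluta genotype too. AnMG0001699300 had a mean of 3.86 CPM in ROSji7_ELstr and means of 142 in ROSpse_elpse, 62.8 in ROSji7_elji7, 65.5 in rosdor_eldor and 93.2 in rosrec_elpse. AnMG0005698800 had 8.33 CPM in ROSji7_ELstr and 211 in ROSpse_elpse. Of the other falls, AnMG0006208700, AnMG0006045900, AnMG0000407600, AnMG0002456200 and AnMG0002455400 were likewise below 10 CPM in both eluta genotypes and above 10 CPM on average in each of the other 5. One white rosdor_eldor plant, whose ID begins with A174, was also low in these 5 genes, at 2.80, 2.04, 2.45, 6.04 and 7.83 CPM. AnMG0006208700 was near the 10 CPM cut in rosrec_elpse, at 10.2 CPM. AnMG0002456200 and AnMG0002455400 both lie on scaffold1033. The remaining falls did not follow this order. AnMG0008679200 had means of 10.9 CPM in ROSji7_ELstr and 6.46 in rosrec_elpse. AnMG0607978800, AnMG0004204410 and AnMG0006236700 had means of 2.34, 6.14 and 3.17 CPM in rosstr_ELstr and at most 0.621 CPM in any other genotype.

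The lowest of the falls rest on few reads or single plants. AnMG0607978800 had 2 reads in the 3 ROSpse_ELstr libraries together and 3.39, 2.49 and 1.14 CPM in rosstr_ELstr, a ratio of 82.1 with a 95% counting interval of 22.7 to 678. AnMG0004204410 had 0, 0.151 and 0.146 CPM in ROSpse_ELstr and 3.46, 0.299 and 14.7 CPM in rosstr_ELstr, so its mean was carried by replicate 3. Of the 11 falls, 8 kept their call with the library number range as a term and 9 without rosstr_ELstr replicate 3, but 0 did without ROSpse_ELstr replicate 2 and 0 without replicate 3, with adjusted p of 0.0101 to 0.184 over the 6 fits.

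The 12 largest rises, AnMG0000144700 included, had log2 fold changes from 3.16 to 7.58. The highest was AnMG0006203300 (scaffold883, bases 30261 to 32186, minus strand), with 47.6, 16.7 and 25.9 CPM in ROSpse_ELstr and 0, 0 and 0.449 CPM in rosstr_ELstr. All its reads in rosstr_ELstr were in replicate 3, and its log2 fold change was 7.58 ± 1.49 with an edgeR adjusted p of 0.0340. The call remained only without rosstr_ELstr replicate 3 (adjusted p over the 6 fits 0.0389 to 0.145, and over all alternatives 1.58e-06 to 1.0). Its means were 20.1 CPM in ROSpse_elpse and 7.68 to 23.6 CPM in the genotypes outside the comparison, so only rosstr_ELstr had a mean near 0. In AnMG0001098100 and AnMG0002536000 rosstr_ELstr was likewise the lowest, with means of 26.4 to 58.8 and 2.95 to 4.55 CPM outside the comparison. AnMG0006021300 had its highest mean in ROSji7_elji7, at 12.8 CPM. AnMG0206985900 had 26.8, 53.8 and 81.2 CPM in ROSpse_ELstr and 1.95, 0.732 and 2.30 CPM in rosstr_ELstr, and AnMG0005927900 had 18.8, 27.9 and 29.1 CPM against 1.42, 0.699 and 1.32 CPM. The groups lay far apart in both, and both were also high in ROSji7_ELstr, at means of 40.7 and 22.8 CPM, and low in ROSpse_elpse, at 3.68 and 1.09 CPM. Their means were 13.0 and 7.14 CPM in rosrec_elpse, and the rosdor_eldor plants spread from 1.39 to 27.6 and from 1.05 to 26.6 CPM, highest in the plant of prefix A174. The AnMG0206985900 call (edgeR adjusted p 0.0339) remained without ROSpse_ELstr replicate 1 only and the AnMG0005927900 call (0.0412) in none of the 6 fits, with adjusted p of 0.0384 to 0.150 and 0.0625 to 0.169.

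AnMG0006051800 (scaffold1376, bases 667814 to 669004, plus strand) was the most abundant called gene among those that rose. It reached 2200, 2420 and 2810 CPM in ROSpse_ELstr and 311, 154 and 234 CPM in rosstr_ELstr, a fold of 10.6, with an edgeR adjusted p of 0.0153. Per length its level was 4300 ± 414 TPM (a length-corrected level; SD, n = 3) in ROSpse_ELstr and 444 ± 152 TPM in rosstr_ELstr, the highest level in TPM among the 36 described genes. The call was lost without ROSpse_ELstr replicate 3 or rosstr_ELstr replicate 1 or 2 (adjusted p over the 6 fits 0.0195 to 0.0807, over all alternatives 6.15e-09 to 1.0). Of the 12 rises, 6 remained called without ROSpse_ELstr replicate 1, 2 without replicate 2, 6 without rosstr_ELstr replicate 3 and 0 without any one of the other 3, with adjusted p of 0.0148 to 0.169 over the 6 fits.

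The other 4 of the 5 most abundant genes that rose were AnMG0006196600, AnMG0005959100, AnMG0006153200 and AnMG0000547800. AnMG0006196600 was at 670, 1850 and 2220 CPM in ROSpse_ELstr and at 332, 219 and 289 CPM in rosstr_ELstr, with replicate 1 the lowest ROSpse_ELstr plant. AnMG0000547800 was at 442, 549 and 743 CPM against 81.8, 61.3 and 67.3 CPM. The log2 fold changes of the 4 were 2.50, 2.19, 1.76 and 3.04 with edgeR adjusted p of 0.0408, 0.0247, 0.0205 and 0.0205. AnMG0005959100 aligned to its place at 91.83% identity only, so its counts may hold reads of a similar gene. None of these 5 was called without ROSpse_ELstr replicate 3 or without rosstr_ELstr replicate 1 or 2, and over the 6 fits their adjusted p ran from 0.0195 to 0.175.

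Of the 5 most abundant genes that fell, AnMG0008687600 had 1220, 1260 and 1280 CPM in ROSpse_ELstr and 2480, 3640 and 4150 CPM in rosstr_ELstr, and AnMG0004363300 had 991, 1200 and 1160 CPM against 2470, 3470 and 3770 CPM. The groups did not overlap, and the white plants were about as abundant in both genes per length, at 1310 ± 312 and 1440 ± 305 TPM (SD, n = 3). The log2 fold changes were -1.45 ± 0.30 and -1.54 ± 0.30, with edgeR adjusted p of 0.0428 and 0.0339. The other 3, AnMG0005775200, AnMG0006338100 and AnMG0002758800, changed by -1.06, -1.47 and -3.00. Each of these 5 calls was lost when any 1 of the 6 libraries was left out, with adjusted p of 0.0523 to 0.204, and AnMG0006338100 (adjusted p 0.0494) was also lost with DESeq2's size factors.

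The 4 calls that remained in all 6 fits include 2 on scaffold121, chosen after their values were seen. AnMG0006872600 (bases 425008 to 429625, minus strand) had 37.9, 55.0 and 63.1 CPM in ROSpse_ELstr and 5.32, 7.58 and 11.4 CPM in rosstr_ELstr, a log2 fold change of 2.68 ± 0.33 with an edgeR adjusted p of 0.00249. AnMG0004221600 (bases 2089654 to 2094049, plus strand) had 432, 322 and 459 CPM against 118, 68.4 and 96.8 CPM, a log2 fold change of 2.10 ± 0.27 with an adjusted p of 0.00354. In AnMG0006872600 the other 5 genotypes had means of 33.7 to 46.2 CPM, so rosstr_ELstr alone was low. AnMG0004221600 overlaps another gene on the same strand. Over all alternatives their adjusted p ran from 1.33e-12 and 7.27e-11 to 1.0, the latter with the plant ID prefix as a term.

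The called genes lay on 79 assembly sequences, and 15 of these held 2 or more. On scaffold121, 9 of 261 tested genes were called (3.45%), 8 of them higher in ROSpse_ELstr, and on scaffold807 7 of 57 (12.3%), 6 of them higher. The background was 0.454%. These 2 sequences are described because they held the most called genes. Over all their tested genes the libraries did not overlap at 50.6% and 50.9%, beside 21.1% over all genes, and the median log2 fold changes were 0.32 and 0.53. Between the rosdor_eldor plants of prefixes A174 and A182, which carry the same ros and el alleles, the median log2 differences there were 0.16 and 0.358. That difference had the called sign at 8 of the 9 and 7 of the 7 called genes. What shifts these sequences was not tested.

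The 15 libraries outside the comparison were set beside the group means of the called genes on the log2(CPM + 0.5) scale. ROSji7_ELstr, whose ROS allele is also dominant and whose EL allele is the same, was nearer ROSpse_ELstr than rosstr_ELstr at 100 of the 112 genes (89.3%, beside 53.6% of all tested genes). ROSpse_elpse, which has the same ROS allele and a recessive el, was nearer ROSpse_ELstr at only 43 (38.4%, beside 55.5%). The counts were 70 for rosrec_elpse (62.5%, beside 46.1%), 55 for ROSji7_elji7 (49.1%, beside 48.1%) and 47 for rosdor_eldor (42.0%, beside 54.2%), whose plants differed widely. These counts tell only which group mean was nearer, not how near it was. At 66 of the 112 genes (58.9%, beside 25.8% of all tested genes) the ROSpse_ELstr mean lay outside the range of the means of these other genotypes. The called genes were chosen with both groups compared. ROSpse_ELstr, ROSji7_ELstr and rosstr_ELstr all have the same EL allele. What places a genotype near ROSpse_ELstr was not tested.

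**Figure D3:**
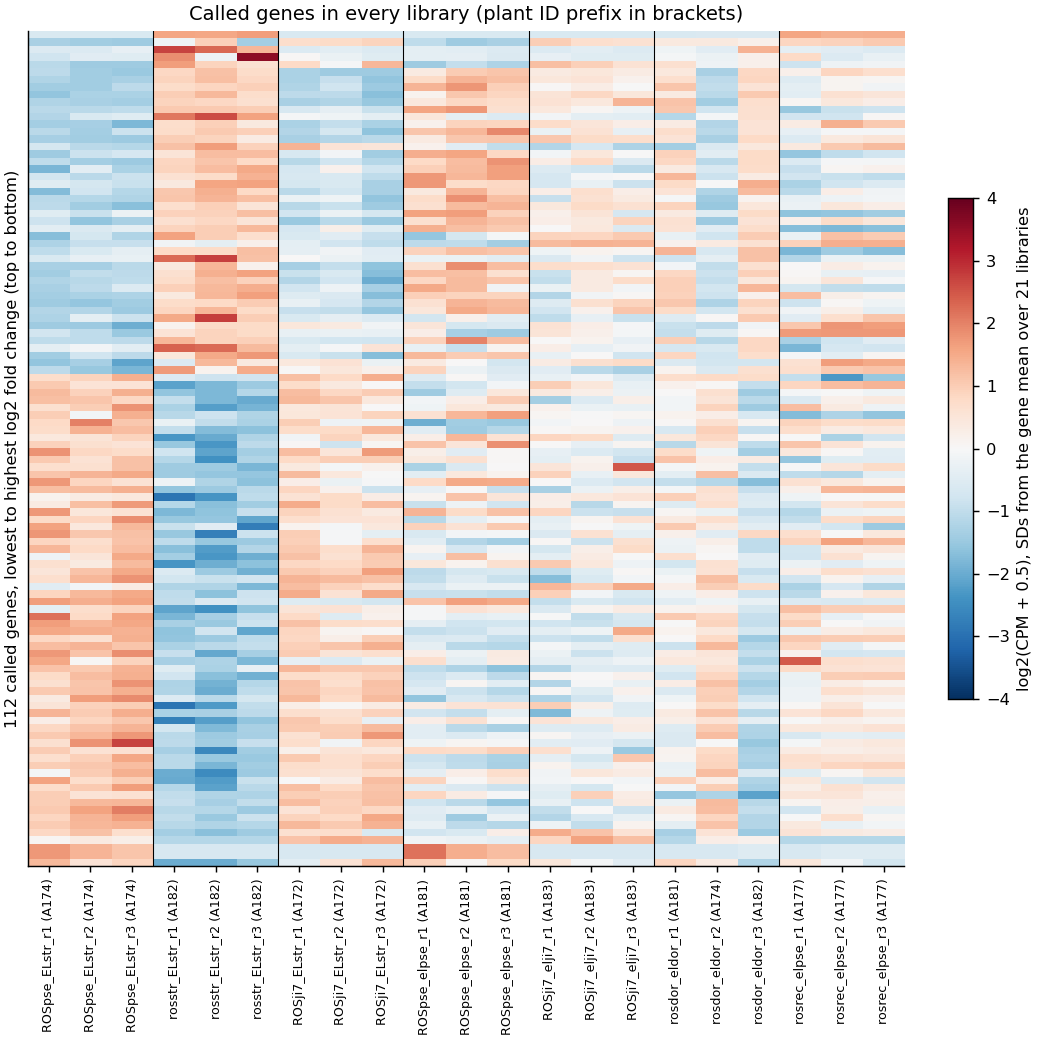
Levels of the 112 called genes (rows, ordered by log2 fold change from lowest to highest) in the 21 libraries (columns, with the plant ID prefix), as log2(CPM + 0.5) in standard deviations from each gene's mean. The ROSji7_ELstr columns and the rosdor_eldor plant of prefix A174 resemble the ROSpse_ELstr columns, which were used to choose the genes.

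**Figure D4:**
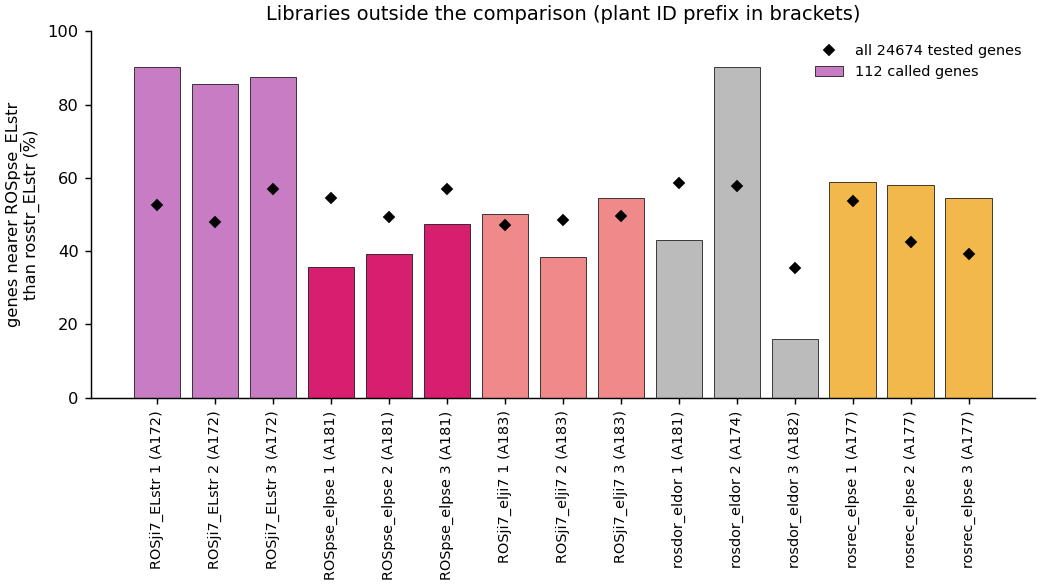
Share of genes whose level is nearer the ROSpse_ELstr mean than the rosstr_ELstr mean (y axis, %) in each of the 15 other libraries (x axis); bars are the 112 called genes and diamonds all 24674 tested genes. The rosdor_eldor plants of prefixes A174 and A182 stand at 90.2% and 16.1%, farther apart than plants of any other genotype.

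The white genotype rosdor_eldor had 1 plant with each of the ID prefixes of the comparison. Their libraries are in neither group compared, but the fit over all 21 libraries used them for the filter, scaling and spread. They are therefore not independent of the choice of the 112 genes. At the called genes, the A174 plant was nearer ROSpse_ELstr at 101 of 112 (90.2%, beside 57.7% of all tested genes) and the A182 plant at 18 (16.1%, beside 35.3%). Both plants carry the same recessive ros and el alleles, and both libraries are in the middle number range. The A174 plant differed from the A182 plant in the called direction at 105 of the 112 genes (93.8%), beside 65.2% of all tested genes and 76.2% of the 2659 with an absolute log2 fold change over 1. The median difference in the called direction was 1.01 on the log2(CPM + 0.5) scale, beside a median absolute log2 fold change of 1.99 between the ROS groups. At 64 genes (57.1%) it was at least 50% of the log2 fold change, beside 47.9% of all tested genes and 39.0% of those with an absolute log2 fold change over 1.

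In AnMG0001699300, for example, the A174 plant had 4.29 CPM and the A182 plant 125 CPM, and in AnMG0006051800 they had 1990 and 246 CPM. Both pairs are close to the levels of ROSpse_ELstr and rosstr_ELstr. The remaining rosdor_eldor plant, of prefix A181, lay between them in both genes, at 67.5 and 649 CPM. What sets these plants apart was not tested. On ros_assembly the A174 and A182 plants differed little in AnMG0000139000, at 30.6 and 28.9 CPM, and in AnMG0000133410, at 14.0 and 11.9 CPM. AnMG0005874000 was at 0.668 and 0.622 CPM, from 21 and 22 reads, a ratio of 1.07 with a 95% counting interval of 0.562 to 2.05. AnMG0005279310 was at 0.0318 and 0.0283 CPM, from 1 read in each plant, with an interval of 0.0143 to 88.3. That is too few reads to show whether the plants differ in it. AnMG0000144700 was at 1.72 and 0.0848 CPM in them, from 54 and 3 reads, a ratio of 20.3 with an exact 95% counting interval of 6.57 to 101. That ratio is as large as the 19.3-fold difference between the ROS groups, at a far lower level. On the log2(CPM + 0.5) scale, which understates the difference of low genes, it was 1.92. There is 1 plant per prefix, so this difference has no replicate check.

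**Figure D5:**
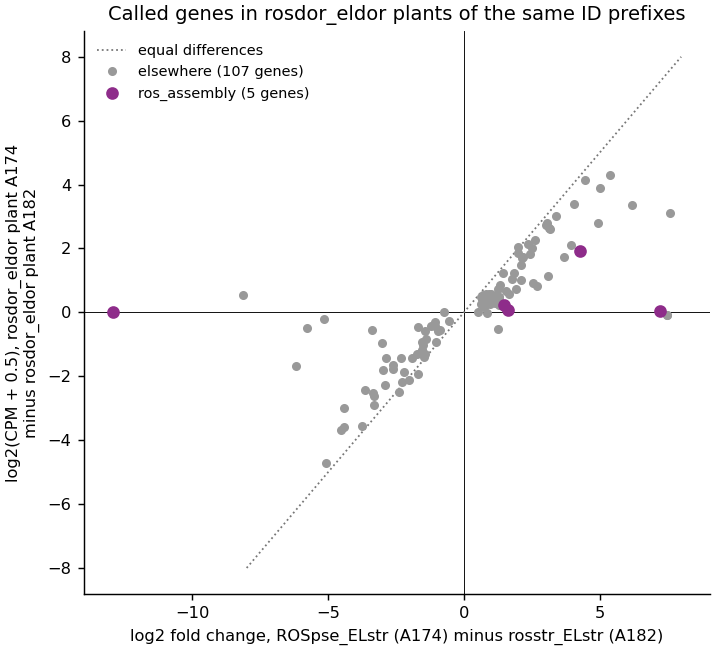
Difference between the rosdor_eldor plants of prefixes A174 and A182 in log2(CPM + 0.5) (y axis) against the log2 fold change of ROSpse_ELstr minus rosstr_ELstr (x axis) for the 112 called genes, with ros_assembly in purple and the dotted line marking equal differences. Many of the 107 other genes lie near the line, and 4 of the 5 genes of ros_assembly lie near 0 on the y axis, with AnMG0000144700 at 1.92. AnMG0005279310 had 1 read in each of the 2 plants, too few to show a difference.

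With the plant ID prefix as a term, a fit over the 4 genotypes that share prefixes called 2 genes, neither among the 112, and its estimate rests on these single rosdor_eldor plants. There the log2 fold changes were -13.06 ± 1.60 for AnMG0005279310, 1.54 ± 0.26 for AnMG0000139000 and 7.10 ± 0.99 for AnMG0005874000, none called (adjusted p 0.660, 0.399 and 0.399). AnMG0000144700 stood at 0.00 and AnMG0000133410 at 1.25 ± 0.57. AnMG0001699300 and AnMG0006051800 moved to -0.22 ± 0.93 and 0.39 ± 0.59.

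ROSpse_elpse against rosdor_eldor compares plants with the same dominant ROS allele and plants with another recessive one. Its groups share no library with those of the first comparison, but both use the spread estimated from all 21 libraries. Both groups have a recessive el, but of *pseudomajus* in one and of rosea-dorsea in the other, so both loci differ in it. It gave 127 called genes (0.515%), 60 higher (0.243%) and 67 lower (0.272%) in ROSpse_elpse. In both lists were 7 genes, and 6 of them moved in the same direction, which is 5.36% of the first list and 4.72% of the second. Called or not, 40 of the 112 genes (35.7%) had the same sign in both comparisons, beside 53.3% of all tested genes. AnMG0000139000 rose by 1.63 and 1.20 on the log2 scale and AnMG0000144700 by 4.27 and 4.96. AnMG0004603900 rose by 0.97 and 1.19, and AnMG0001002600 fell by 1.70 and 2.70. AnMG0000994800 and AnMG0005275600 have identical counts and the same place on scaffold202, so they count as 1 locus. They had 0.982, 0.756 and 0.620 CPM in ROSpse_ELstr, 0 in rosstr_ELstr, a mean of 0.930 in ROSpse_elpse and at most a trace elsewhere. AnMG0004255200 moved in opposite directions, by 0.73 and -0.64.

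The difference between the 2 group differences was tested as an interaction, which called 92 genes upwards (0.373%) and 82 downwards (0.332%), 0.705% together. Of the 112 genes, 60 were among them, 35 of the higher and 25 of the lower ones, and 24 of the 36 described by rule. The 6 libraries that chose the 112 genes are also in the interaction, so these counts are a description and nothing is read from them. In AnMG0001699300 the difference was -5.07 with EL of *striatum* in both groups and 1.12 between the groups with a recessive el, and the interaction was -6.19 with an edgeR adjusted p of 0.0169. In AnMG0006051800 the differences were 3.41 and -1.49, and the interaction was 4.90 with an adjusted p of 0.0153. In AnMG0000139000 the interaction was 0.43 and not called (adjusted p 0.278), and in AnMG0000144700 it was -0.69 (0.903). The interaction sets the ID prefixes A174 and A182 against A181 and the 3 rosdor_eldor prefixes, so the EL and el alleles and the prefix are not separated in it.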

How the data were processed

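Corolla RNA of 21 plants was sequenced, 1 library per plant. The tools named in the submitters' processing notes, without their roles, are cutadapt 1.16, Salmon 0.9.1 and DESeq2. The authors deposited, for each library, the estimated count and the TPM of 51926 transcripts in Salmon's table format. A deposited placement file puts transcripts on assembly sequences, JICv1 per its name, with an alignment score, used only to choose 1 place per gene. Strand use and Salmon settings are not given in the sources used here, so the 28 called genes that overlap another gene are uncertain. Estimated counts were summed to 37234 genes and rounded. edgeR 4.0.16 (R 4.3.3, limma 3.58.1) fitted all 21 libraries with 1 mean per genotype and TMM scaling to the 24674 genes that reached 0.5 CPM in 3 or more libraries. Calls are at a Benjamini-Hochberg adjusted p under 0.05 of the quasi-likelihood test, and a standard error is the absolute log2 fold change over F's square root. The estimated biological coefficient of variation was 0.400. TPM was used only for levels.

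Genes were named by rule: the 12 largest rises and falls among called genes whose groups did not overlap and whose higher group averaged 1 CPM or more, every called gene of ros_assembly, and the 5 most abundant called in each direction, 36 in all. The groups, lists and rules were chosen with earlier results of these data known, and 8 more genes after their values were seen. The files do not pair IDs with names, so pigment and tissue marker lists were not run and no sequence is shown. Alternatives were DESeq2 1.42.0, its size factors, upper-quartile scaling, no filter, a 1 CPM filter, only the groups compared, the library number range or the plant ID prefix as a term, the middle range alone, and each library left out in turn. The procedure was tested on simulated data that held no effect of plant ID prefix or library number range, so that test does not bear on these.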

Additional observations from a re-analysis of the deposited data

Results flagged for a closer look

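The interaction of ROSpse_ELstr minus rosstr_ELstr against ROSpse_elpse minus rosdor_eldor was called for 27 named genes (edgeR, Benjamini-Hochberg adjusted p under 0.05 over all genes). Of these, 24 are among the 36 named by rule, and the rest were named after their values were seen. Over all tested genes the share was 0.705%. Most were named for a large difference that is itself part of the interaction, so nothing is read from the count. The values are given with no explanation weighed. The genes were named from 6 of the 12 libraries involved, and the plant ID prefix differs along with the EL allele. ROSpse_elpse and rosdor_eldor also carry different recessive el alleles. No group has 4 or more libraries, so single libraries were not tested as outliers.

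Among genes that rose, the interaction in log2 units was 7.97 in AnMG0006381100, 7.75 in AnMG0005927900, 6.81 in AnMG0206985900, 6.56 in AnMG0907105600 and 5.43 in AnMG0008595900. It was 4.90 in AnMG0006051800, 4.78 in AnMG0002930000, 3.78 in AnMG0002536000, 3.84 in AnMG0006196600 and 3.76 in AnMG0000547800. It was 2.79 in AnMG0005959100, 2.55 in AnMG0006872600, 2.36 in AnMG0001304500, 2.19 in AnMG0006153200 and 2.03 in AnMG0004221600. In 2 genes of ros_assembly it was 7.62 in AnMG0005874000, whose rosstr_ELstr libraries are all at 0, so that this fitted value depends on the prior count, and 2.61 in AnMG0000133410.

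Among genes that fell, it was -6.19 in AnMG0001699300, -6.06 in AnMG0006208700, -5.81 in AnMG0005698800, -5.25 in AnMG0002455400 and -5.09 in AnMG0008679200. It was -4.95 in AnMG0006045900, -4.21 in AnMG0002456200, -4.14 in AnMG0002758800, -1.92 in AnMG0004363300 and -1.88 in AnMG0008687600.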

How the results depend on the processing

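The share of tested genes called between ROSpse_ELstr and rosstr_ELstr, 0.454% or 112 genes, became 2.89% with DESeq2, 0.808% with only the groups compared (103 higher and 80 lower, 67 shared with the 112), 0.0542% in the middle library number range alone (13 genes, 3 shared), 0.00839% with the plant ID prefix as a term (2 genes, 0 shared) and 0.0203% to 0.361% with 1 library left out. The number range as a term gave 90 calls, 74.4% of them higher, beside 58.9%. On ros_assembly the 5 calls became 9 with DESeq2, 2 in the middle range, 0 with the prefix and 2 to 4 with 1 library left out. For ROSpse_elpse minus rosdor_eldor, 0.515% became 2.87%, 0.0921%, 0.138% and 2.14% in the order of the first sentence, and 0.0528% (without ROSpse_elpse replicate 2) to 0.769% (without rosdor_eldor replicate 1) with 1 left out. For the interaction, 0.705% became 2.76%, 0.134%, 0.0917% and 0.101%, and 0.223% to 1.08% without the same libraries. Other scalings and filters kept the number of calls within 1.5 times. Of the 36 genes named by rule, DESeq2 called 36, the fit without a filter 31, the groups alone 27, the range as a term 26, the middle range 2 and the prefix fit 0. With the prefix as a term AnMG0005927900 reversed to -0.22 and AnMG0000407600 to 0.034. The cause was not tested, but the middle range holds 2 plants per group and the prefix estimate rests on single plants. No paired analysis was run, because each library came from a different plant and ROSpse_ELstr and rosstr_ELstr share no plant ID prefix. Low depth limits genes with 0 to 3 reads in a group, AnMG0005874000 and AnMG0607978800 among them.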
